A study of Mus musculus with 13 samples.

Results

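Numbered zinc finger protein genes are the mouse genes whose symbol is Zfp followed by digits alone. Of the 13222 genes in the expression table, 306 had such a symbol, and all 306 are described here. They were chosen by name and not by any measured value. The libraries came from 4T1-Thy1.1 cells, a mouse mammary carcinoma line used as a model of triple negative breast cancer and referred to as 4T1. All cells were of this single line and were cultured for 48 h. Untreated cells gave 3 libraries (control), and doxorubicin at 200 ng/mL gave 4 (DOX). The same dose combined with 25 ng/mL of IL-17A gave 3 (DOX+IL-17A), as did that dose of the cytokine by itself (IL-17A). DOX is an anthracycline that intercalates into DNA and blocks topoisomerase II, and IL-17A is an inflammatory cytokine. Sequencing read only the 3' ends of polyadenylated RNA, and the values below are TMM-normalized read counts per gene. TMM is a scaling of each library that assumes most genes to be unchanged.

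Zinc finger proteins of the C2H2 kind fold around zinc ions and usually carry several fingers in a row, each of which contacts a few bases of DNA. Many also carry a KRAB domain, which recruits the corepressor Trim28 and with it enzymes that compact chromatin. KRAB zinc finger genes arose by repeated local duplication, lie in clusters, and are best known for silencing retroelements and guarding imprinted loci. Members outside this group act in unrelated processes, from mRNA decay to spindle assembly. The symbol is therefore a name shared by proteins of different function.

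The coding sequences in GENCODE M21 showed what the members share beyond the name. A coding sequence was found for 305 members, and *Zfp469* had none. A search of the translated sequences found 3 or more C2H2 fingers in 278 members, against 1.68% of the other listed genes. The median was 11 fingers and the highest number was 37. A KRAB pattern was found in 165 members (54.1%) and in 0.492% of other genes. The most widely shared stretch of 18 coding bases is printed here because it encodes most of the conserved linker that joins neighbouring fingers.

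Shared linker stretch: TCATACTGGAGAGAAACC

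This exact stretch was present in 44 of 305 members (14.4%) and in 12 of 11799 other genes (0.102%). With every codon for the linker residues allowed, 228 members (74.8%) and 1.03% of other genes had an in-frame match. The repeats are shown for 4 members whose transcripts changed with DOX, each from the first base of a linker to the last base before the next linker, with the linker codons in capitals.

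Zfp260, bases 628 to 711 of the coding sequence: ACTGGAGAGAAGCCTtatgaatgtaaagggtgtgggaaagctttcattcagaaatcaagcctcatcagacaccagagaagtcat

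Zfp30, bases 1048 to 1131: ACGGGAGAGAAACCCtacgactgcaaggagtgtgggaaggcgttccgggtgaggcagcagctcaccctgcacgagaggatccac

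Zfp606, bases 1444 to 1527: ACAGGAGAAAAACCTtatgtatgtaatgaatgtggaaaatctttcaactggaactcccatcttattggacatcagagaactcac

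Zfp948, bases 709 to 792: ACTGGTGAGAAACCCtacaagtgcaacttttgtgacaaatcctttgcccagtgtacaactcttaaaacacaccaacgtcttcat

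Each repeat was 84 bases long, and any pair of them was identical at 44 to 60 of the 84 positions. *Zfp260*, *Zfp30* and *Zfp606* fell with DOX and *Zfp948* rose, so the same kind of repeat was found in members of either direction.

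The likeness between members also set a limit on the measurement. Of the 305 members, 68 shared at least 1 stretch of 75 bases, the read length, with a transcript of another gene within the last 500 bases of a transcript, and 34 shared 20% or more of such stretches. *Zfp966* and *Zfp967*, which lie on chromosome 2, had the same reads in all 13 libraries (272 reads each), above 0 in 11 of them. *Zfp965* and *Zfp973* also had the same reads in all 13 libraries (32 each), but above 0 in only 5. *Zfp600* had the same reads as its near-identical neighbour *Rex2* in 9 of 13 libraries, above 0 in 7 of these (157 and 177 reads in total). These genes cannot be counted as separate measurements, and whether the authors counted reads that map to several places is not given in the sources used here.

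Numbered zinc finger genes were expressed at low levels. Their mean over the 13 libraries had a median of 7.72 normalized units (range 0.232 to 414), against 18.8 for all listed genes. The mean was under 10 units in 177 members and over 100 in 12. Libraries held 4445592 to 16930600 reads on listed genes, and 3 reads, taken as the smallest detectable value, were worth 0.183 to 0.613 units. This limit covers counting error only. A test could be run on 294 members, and the other 12 did not have enough reads (the highest value of any was 3.27 units, for *Zfp14*). When all tested genes were split by mean value into 10 equal classes from low to high, 205 of the 294 (69.7%) lay in classes 2 to 5 and 22 in the upper 3.

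**Figure D1:**
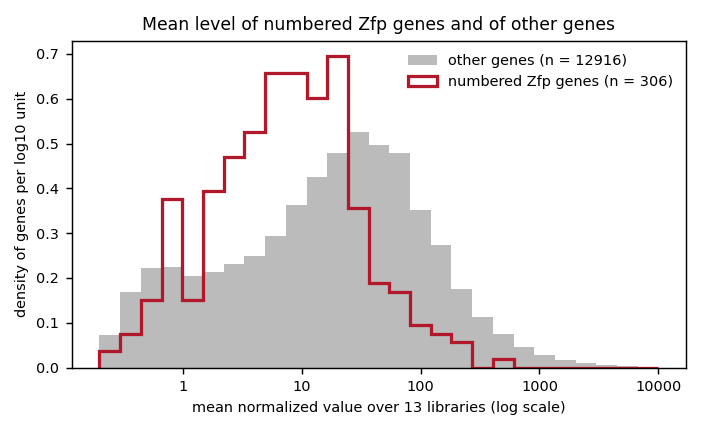
Distribution of the mean normalized value over 13 libraries (log scale) for 306 numbered Zfp genes (red line) and all other genes (grey bars), as density per log10 unit. The members peak below the other genes, with a median of 7.72 normalized units.

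The 8 members of highest mean were *Zfp106*, *Zfp91*, *Zfp664*, *Zfp326*, *Zfp207*, *Zfp292*, *Zfp871* and *Zfp638*. *Zfp106*, which encodes an RNA-binding protein needed by motor neurons, stood at 449 ± 111 (SD, n = 3) in control, 393 ± 57.2 (n = 3) with IL-17A, 389 ± 27.6 (n = 4) with DOX and 433 ± 91.7 (n = 3) with DOX+IL-17A. *Zfp91*, which encodes a ubiquitin ligase of the noncanonical NF-kB pathway, stood at 217 ± 44.2, 268 ± 80.3, 297 ± 30.4 and 262 ± 34.1 in the same order. *Zfp207*, which encodes a spindle assembly factor, stood at 199 ± 8.76, 215 ± 61.1, 158 ± 35.6 and 158 ± 20.1. Of these 8 genes only *Zfp292* was called in either comparison of DOX with its matched libraries without DOX. *Zfp664* stood at 188.9 ± 48.0, 163 ± 21.3, 209.8 ± 19.5 and 207 ± 34.0 in the same order, and *Zfp871* at 149 ± 49.3, 113 ± 30.4, 137 ± 17.2 and 163 ± 10.3. *Zfp326*, which encodes a subunit of the DBIRD complex that acts in transcription and splicing, stood at 190.4 ± 69.5, 159.9 ± 26.3, 210.1 ± 8.04 and 190.8 ± 17.8. *Zfp638*, which encodes an RNA-binding protein, stood at 145 ± 23.7, 129 ± 6.01, 128 ± 4.51 and 109.6 ± 22.5. Reads from 3' ends do not scale with transcript length, and the order of these levels is a description.

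Summed over all members, the level was 5898 ± 253 units in control (n = 3), 5673 ± 205 with IL-17A (n = 3), 5908 ± 343 with DOX (n = 4) and 5699 ± 430 with DOX+IL-17A (n = 3), and the ranges of the 4 groups overlapped. As a share of all reads, which leaves out the TMM factor, the members took 0.555 to 0.556% in control, 0.587 to 0.687% with DOX, 0.573 to 0.655% with DOX+IL-17A and 0.499 to 0.533% with IL-17A. On that scale every library with DOX lay above every library without it.

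Before the comparisons, some libraries stood apart. Control replicate 1 had 30 members at 0 reads, against 9 and 7 in control replicates 3 and 5, and its mean correlation with the other controls over the members' log2 values was 0.874, against 0.908 and 0.924 for the others. DOX replicate 1 had a sum of 293 units over the 10 muscle genes listed as markers, against 9.93 to 46.5 in the libraries without DOX and with DOX+IL-17A, and the red cell genes were also highest there (66.5 units). Summed epithelial markers (*Krt8*, *Krt18*, *Krt19*, *Epcam*, *Cdh1* and *Cldn7*) were 1427 to 1663 units in control and 696 to 796 with DOX. They were 1266 to 1563 with IL-17A and 584 to 743 with DOX+IL-17A. The genes differed. In limma, DOX against control gave log2 fold changes of -2.08 in *Krt19*, -1.50 in *Epcam*, -0.87 in *Krt18* and -0.69 in *Krt8*. Those of *Cdh1* (-0.67, adjusted p = 0.2) and *Cldn7* (-0.36, 0.44) did not pass the adjusted p. For DOX+IL-17A against IL-17A these 2 genes had 0.02 and 0.17. The immune genes *Ptprc* and *Cd68* summed to 1.52 to 6.33 units in control and 10.5 to 19.4 with DOX. They summed to 4.92 to 13.1 with IL-17A and to 8.79 to 9.86 with DOX+IL-17A. *Ptprc* and *Cd68* did not change together. For DOX against control the limma log2 fold change was 2.01 in *Cd68* (adjusted p = 0.016) and 0.39 in *Ptprc* (0.44). For DOX+IL-17A against IL-17A it was -0.13 in *Cd68* (0.91) and 1.76 in *Ptprc* (0.0074). *Cd3e*, *Cd79a* and *Lyz2* were not analysed here. The fibroblast genes *Col1a1*, *Col3a1* and *Pdgfra* summed to 41.1 to 105 units in control, 33.0 to 46.4 with IL-17A, 23.0 to 60.4 with DOX and 43.4 to 57.9 with DOX+IL-17A. The hormone receptor gene *Esr1* was not called in either comparison of DOX. The part of these differences in the results below was not tested. In bulk RNA, fewer cells with a transcript and less of it per cell cannot be told apart.

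With DOX alone, 22 of 294 tested members were higher than in control and 11 were lower. A gene was called where limma's adjusted p was under 0.05 and the fold change above 2, with Benjamini-Hochberg adjustment over all 12319 tested genes. Among all tested genes 9.15% were called higher and 6.18% lower, so the members' shares (7.48% and 3.74%) lay below the background in both directions. Among all tested genes of the same mean value, weighted as the members are spread over 10 equal classes of mean value, 9.51% were called higher and 5.96% lower. The 33 called members made 11.2% of those tested, against 15.3% of all tested genes and 15.5% of genes of the same mean value. The groups did not overlap in 77 members (26.2%), against 33.7% of all tested genes. The median log2 fold change of the members was 0.18 (quartiles -0.30 and 0.64), against 0.09 for all tested genes and 0.11 at the same mean value.

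With DOX+IL-17A, set against IL-17A alone, 8 members were called higher and 12 lower. This comparison uses other libraries than DOX against control, although both draw on the same estimate of the spread. Of all tested genes 4.92% were called higher and 4.92% lower, and of genes of the same mean value 5.25% and 4.55%. The members' shares were 2.72% higher and 4.08% lower. The 20 called members were 6.8% of those tested, against 9.84% of all tested genes and 9.8% of genes of the same mean value. The median log2 fold change was 0.07 against 0.02 for all tested genes, and 88 members did not overlap between groups (29.9%, against 32% of all tested genes). Numbered zinc finger genes were thus called less often than genes of their level in both comparisons of DOX, and this held in all 22 alternative ways of scaling, testing, filtering or leaving out a library in each comparison, which reuse the same libraries. Their share ran from 6.46 to 13.6% in the first comparison, against 10.5 to 18.1% at the same mean value. In the second it ran from 3.38 to 9.7%, against 4.48 to 13.6%. It was not seen in every class of mean value. In classes 7, 8 and 10, which held 13, 9 and 6 members, members were called more often than all genes of the class. The members' shares there were 23.1, 33.3 and 16.7% in the first comparison, against 18.7, 15.7 and 12.3%. In the second they were 23.1, 11.1 and 16.7%, against 12.9, 9.42 and 8.69%. The difference in shares is a description and was not tested.

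**Figure D2:**
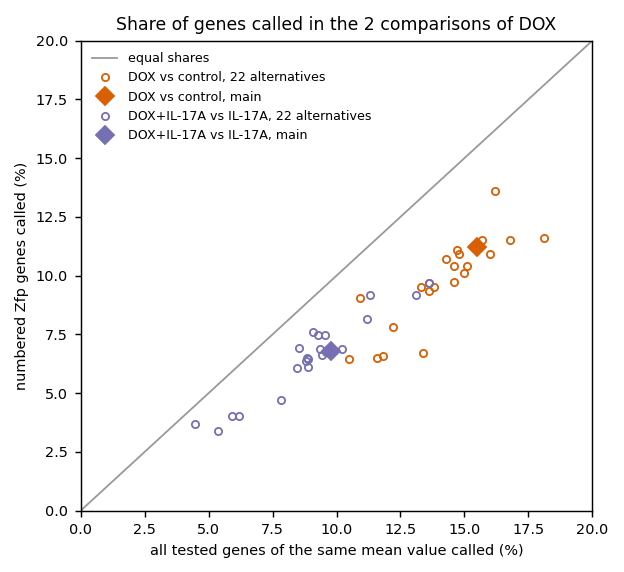
Share of tested numbered Zfp genes called (y axis, %) against the share of all tested genes of the same mean value called (x axis, %), for DOX vs control (orange) and DOX+IL-17A vs IL-17A (purple). Filled diamonds are the values in the text (11.2% against 15.5%, and 6.8% against 9.8%), open circles are 22 alternatives each, and all lie under the grey line of equal shares.

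The counts themselves were less steady than this difference in shares. Without control replicate 1, the library with most members at 0, 12 members were called higher and 8 lower with DOX. Without DOX replicate 1, the library with muscle and red cell genes, the counts were 16 and 11. Leaving out DOX replicate 3 or DOX replicate 4 gave 11 and 9 higher members, and leaving out DOX replicate 2 gave 5 lower ones. With scaling by library size only, which shifted the median over the whole table (0.09 to 0.24 in the first comparison, 0.02 to 0.22 in the second), 34 members were called higher and 6 lower in the first comparison and 20 and 7 in the second. In the second comparison, the higher members numbered 3 without DOX+IL-17A replicate 2, 5 without DOX+IL-17A replicate 3, 5 without DOX+IL-17A replicate 5, 4 without IL-17A replicate 3 and 3 without IL-17A replicate 5. The lower members numbered 7 without DOX+IL-17A replicate 3, without IL-17A replicate 3 or without IL-17A replicate 5.

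The set of 12 members called in both comparisons of DOX with the same direction made 36.4% of the 33 called in the first and 60% of the 20 called in the second. All 33 members called with DOX alone had the same sign in the other comparison, as did all 20 in reverse. Among all tested genes this was nearly as common, with 1821 of 1888 called in the first and 1192 of 1212 in the second. Of all tested genes, 750 were called in both, 39.7% of the first list and 61.9% of the second. Across the 294 members, the log2 fold changes of the 2 comparisons had a Pearson's r of 0.669 and a Spearman's rho of 0.631, against 0.718 and 0.69 across all 12319 genes. These correlations run across genes, which are not independent replicates.

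**Figure D3:**
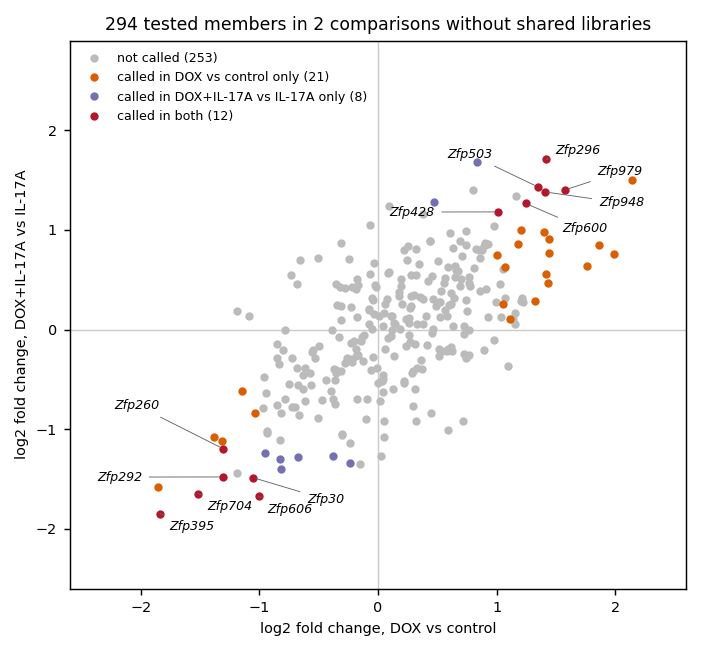
Log2 fold change of each of the 294 tested members in DOX vs control (x axis) and DOX+IL-17A vs IL-17A (y axis), which share no library. Colours give the comparison in which a member was called, and the 12 called in both (named, red) lie in the lower left and upper right corners, 6 in each.

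**Figure D4:**
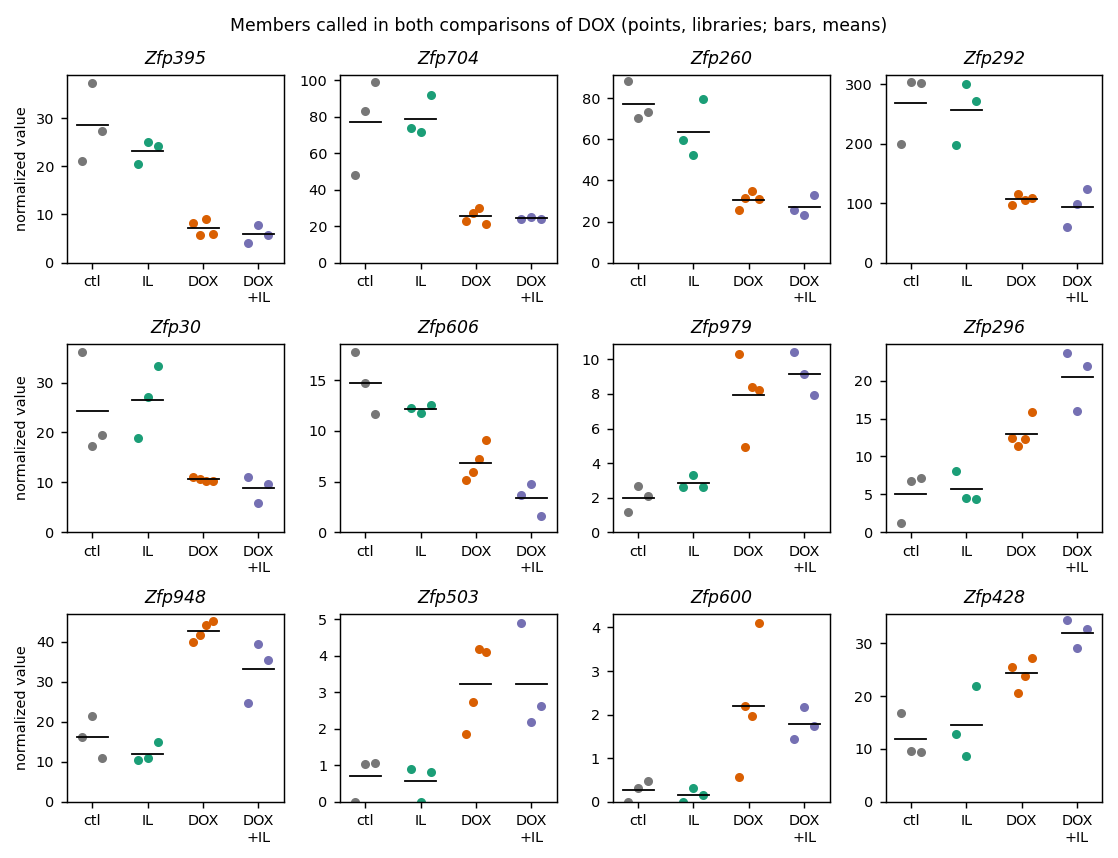
Normalized value of the 12 members called in both comparisons, in each library (points) of control (ctl), IL-17A (IL), DOX and DOX+IL-17A (DOX+IL), with group means (bars) and every y axis starting at 0. In the 6 members that fell, and in the 6 that rose, the libraries with DOX lie apart from the matched libraries without it.

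Among the 12 members called in both comparisons, *Zfp395* and *Zfp704*, a pair of related genes, fell most with DOX alone. Their proteins, 508 and 566 residues long, carry 1 finger each and were identical at 44.1% of 460 aligned residues. *Zfp395* (chr14:65358389-65398930, + strand, GRCm38) stood at 21.1, 37.4 and 27.2 units in control, at 20.5, 25.0 and 24.3 with IL-17A, at 8.13, 5.69, 9.09 and 5.90 with DOX and at 4.09, 7.75 and 5.81 with DOX+IL-17A. Every library with DOX lay under every library without it. DOX against control gave a log2 fold change of -1.84 ± 0.30 (SE, adjusted p = 0.00074), and DOX+IL-17A against IL-17A one of -1.85 ± 0.32 (adjusted p = 0.0023). *Zfp704* (chr3:9427020-9610085, - strand) stood at 48.2, 83.2 and 99.2 units in control, at 73.6, 71.4 and 91.7 with IL-17A, at 22.8, 27.3, 29.8 and 21.4 with DOX and at 23.9, 25.2 and 24.0 with DOX+IL-17A. Again the libraries with and without DOX did not overlap. Its log2 fold changes were -1.52 ± 0.24 (adjusted p = 0.00073) and -1.65 ± 0.26 (adjusted p = 0.0014). Both genes were called in both comparisons under all 22 alternatives.

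*Zfp260*, which encodes a factor described in heart muscle, and *Zfp292*, which encodes a large protein tied to neurodevelopmental disorders, also fell in both comparisons. *Zfp260* (chr7:30094777-30107622, + strand) stood at 88.3, 70.6 and 73.2 units in control, at 59.7, 52.2 and 79.5 with IL-17A, at 25.5, 31.4, 35.1 and 30.9 with DOX and at 25.6, 23.1 and 32.7 with DOX+IL-17A. *Zfp292* (chr4:34803113-34882960, - strand) stood at 199.8, 304 and 302 units in control, at 198, 299.6 and 272 with IL-17A, at 97.0, 115, 105 and 108 with DOX and at 60.1, 98.7 and 123 with DOX+IL-17A. In neither gene did a library with DOX reach a library without it. The log2 fold changes of *Zfp260* were -1.31 ± 0.22 (adjusted p = 0.00091) and -1.20 ± 0.23 (adjusted p = 0.0047). Those of *Zfp292* were -1.30 ± 0.24 (adjusted p = 0.0019) and -1.48 ± 0.26 (adjusted p = 0.0026). The second call of *Zfp260* was lost with scaling by library size only, and no other call of these 2 genes was lost under an alternative.

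The KRAB genes *Zfp30* and *Zfp606* completed the members that fell in both comparisons. *Zfp30*, which in mice has been tied to the level of the neutrophil chemokine Cxcl1 in the airway, lies at chr7:29783998-29794702 (+ strand). It stood at 36.2, 17.2 and 19.4 units in control, at 18.8, 27.0 and 33.4 with IL-17A, at 11.03, 10.7, 10.2 and 10.3 with DOX and at 11.04, 5.76 and 9.68 with DOX+IL-17A. *Zfp606* (chr7:12478293-12496235, + strand) stood at 17.8, 14.7 and 11.7 units in control, at 12.3, 11.8 and 12.6 with IL-17A, at 5.15, 5.91, 7.27 and 9.12 with DOX and at 3.68, 4.77 and 1.62 with DOX+IL-17A. The libraries with and without DOX did not overlap in either gene, and control replicate 1 was the highest control in both. The log2 fold changes of *Zfp30* were -1.06 ± 0.31 (adjusted p = 0.026) and -1.49 ± 0.34 (adjusted p = 0.011). Those of *Zfp606* were -1.01 ± 0.33 (adjusted p = 0.037) and -1.67 ± 0.35 (adjusted p = 0.0068). With DOX alone both lay close to the fold change of 2 that a call needed, and the call was lost under 6 of 22 alternatives for *Zfp30* and 9 for *Zfp606*, among them leaving out control replicate 1. In the other comparison the call of *Zfp30* was lost without DOX+IL-17A replicate 3.

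*Zfp948* was 1 of 6 members that rose in both comparisons. This KRAB gene (chr17:21567008-21588699, + strand) stood at 16.1, 21.4 and 10.8 units in control, at 10.4, 10.8 and 14.9 with IL-17A, at 39.9, 41.8, 44.3 and 45.3 with DOX and at 24.7, 39.4 and 35.5 with DOX+IL-17A. All 7 libraries with DOX lay above all 6 without it. Its log2 fold changes were 1.41 ± 0.26 (adjusted p = 0.002) and 1.38 ± 0.28 (adjusted p = 0.0063), and it was called under all 22 alternatives in both comparisons. *Zfp296*, which encodes a partner of the pluripotency network that promotes reprogramming (chr7:19577287-19580656, + strand), stood at 1.18, 6.82 and 7.19 units in control, at 8.11, 4.56 and 4.43 with IL-17A, at 12.4, 11.4, 12.3 and 15.8 with DOX and at 23.7, 16.0 and 21.9 with DOX+IL-17A. Control replicate 1 was the lowest library, and the others without DOX also lay under those with it. The log2 fold changes were 1.42 ± 0.41 (adjusted p = 0.023) and 1.71 ± 0.44 (adjusted p = 0.019). The call with DOX alone was lost under 4 alternatives, including without control replicate 1. That with DOX+IL-17A was also lost under 4, without DOX+IL-17A replicate 2 or 5 or IL-17A replicate 3 or 5.

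*Zfp428* and *Zfp503* also rose in both comparisons. *Zfp428* (chr7:24507006-24515682, + strand) stood at 16.7, 9.62 and 9.43 units in control, at 12.8, 8.65 and 21.99 with IL-17A, at 25.6, 20.6, 23.9 and 27.3 with DOX and at 34.4, 29.1 and 32.6 with DOX+IL-17A. IL-17A replicate 5 reached above the lowest DOX library, but neither matched comparison overlapped. The log2 fold changes were 1.01 ± 0.30 (adjusted p = 0.027) and 1.18 ± 0.32 (adjusted p = 0.026), and the calls were lost under 7 and 5 alternatives. *Zfp503*, which encodes a repressor of *Gata3* in mammary epithelium (chr14:21983959-21989601, - strand), was listed at 0, 1.04 and 1.06 units in control and at 0.901, 0 and 0.82 with IL-17A. With DOX it stood at 1.85, 2.74, 4.19 and 4.11 units, and with DOX+IL-17A at 4.91, 2.18 and 2.62. The control libraries held 0 to 17 reads and the DOX libraries 23 to 46. The log2 fold changes were 1.35 ± 0.40 (adjusted p = 0.025) and 1.43 ± 0.42 (adjusted p = 0.036), and the calls were lost under 7 and 9 of 22 alternatives, including voom and edgeR on the recovered reads.

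The remaining pair, *Zfp979* and *Zfp600*, are KRAB genes on chromosome 4 whose 3' ends are not unique. *Zfp979* (chr4:147611937-147642513, - strand) stood at 1.18, 2.68 and 2.12 units in control, at 2.59, 3.301 and 2.63 with IL-17A, at 10.3, 4.93, 8.39 and 8.23 with DOX and at 10.4, 9.14 and 7.93 with DOX+IL-17A. Its log2 fold changes were 1.58 ± 0.32 (adjusted p = 0.0033) and 1.40 ± 0.34 (adjusted p = 0.015), and the second call was lost without DOX+IL-17A replicate 2 or IL-17A replicate 5. *Zfp600* (chr4:146156824-146198755, + strand) was listed at 0, 0.304 and 0.471 units in control and 0, 0.314 and 0.164 with IL-17A, at 0.563, 2.19, 1.96 and 4.11 with DOX and at 1.43, 2.18 and 1.75 with DOX+IL-17A. The groups did not overlap in either gene. *Zfp600* had log2 fold changes of 1.25 ± 0.38 (adjusted p = 0.028) and 1.27 ± 0.40 (adjusted p = 0.05), held 0 to 5 reads in control and 7 to 46 with DOX, and lost its call under 8 of 22 alternatives in the first comparison, edgeR and voom among them, and under 14 in the second. *Zfp979* shared 30.2% of its 3' stretches with another gene and *Zfp600* 74.6%, so which copy gave these reads is uncertain.

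For these 12 genes the smallest p that the exact permutation test of single values can give is 0.0571 for 4 libraries against 3 and 0.1 for 3 against 3, two-sided. That test therefore could not pass 0.05 here, and every gene of the 12 gave these smallest values.

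A further 16 members were called higher and 5 lower with DOX alone but not in the other comparison. Of the 1888 genes called with DOX alone among all tested, 1138 were likewise called only there. *Zfp367* had the largest log2 fold change of any member, 2.14 ± 0.53 (adjusted p = 0.0098). It stood at 8.46, 41.6 and 19.7 units in control and at 84.7, 136, 82.6 and 64.7 with DOX, so that the spread within control was wide but the groups did not overlap. *Zfp598*, which encodes the ubiquitin ligase that senses collided ribosomes, stood at 19.3, 62.7 and 35.8 units in control and at 76.2, 115, 97.6 and 106 with DOX (log2 fold change 1.44 ± 0.36, adjusted p = 0.0098). *Zfp473*, which encodes a factor in histone mRNA 3' end processing, stood at 0.677, 2.44 and 3.06 units in control and at 7.16, 5.69, 7.97 and 5.90 with DOX (1.41 ± 0.44, adjusted p = 0.033). In all 3 genes control replicate 1 was the lowest of the 7 libraries. Without control replicate 1 the change of *Zfp473* was 1.03 (adjusted p = 0.12), and its call was also lost without any 1 of the 4 DOX replicates. *Zfp961*, *Zfp850* and *Zfp707* rose by 1.99, 1.87 and 1.76 on the log2 scale, and *Zfp961* was not called without control replicate 1 (adjusted p = 0.084), control replicate 5 (0.091) or any DOX replicate (0.052 to 0.06). Among those that fell, *Zfp775* stood at 14.4, 14.3 and 11.7 units in control and at 2.82, 1.97, 3.91 and 3.49 with DOX (log2 fold change -1.86 ± 0.52, adjusted p = 0.02), a call lost without DOX replicate 2 (adjusted p = 0.053). *Zfp609*, which encodes a partner of the cohesin loader Nipbl and of Integrator, had a mean of 60.4 ± 34.8 (SD, n = 3) in control and 24.3 ± 2.83 (n = 4) with DOX (log2 fold change -1.15 ± 0.31, adjusted p = 0.017), but without control replicate 1 the change was -0.71 (adjusted p = 0.061). Its relative *Zfp608*, identical at 50.8% of aligned residues, passed the adjusted p but not the fold change, at 78.7 ± 21.6 and 38.9 ± 5.08 units (-0.97, adjusted p = 0.013).

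With DOX+IL-17A against IL-17A, 8 members were called that were not called with DOX alone, 2 higher and 6 lower. Of the 1212 genes called in this comparison among all tested, 462 were likewise called only there. *Zfp599* had means of 25.5 units with IL-17A and 63.5 with DOX+IL-17A (log2 fold change 1.28 ± 0.27, adjusted p = 0.0067). *Zfp318*, which encodes the factor that allows IgD to be made by alternative RNA processing in B cells, had means of 96.4 and 38.8 units (-1.30 ± 0.23, adjusted p = 0.0026). *Zfp566* was the other higher member, and *Zfp316*, *Zfp523*, *Zfp580*, *Zfp654* and *Zfp810* the other lower ones. Whether any of these 8 differed between the 2 comparisons was tested by the interaction term, which called none of the members.

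Members with a role fixed in a list are given next, and their counts stand beside the 15.3% and 9.84% of all tested genes that were called in the first and second comparison. *Zfp503* and *Zfp703*, relatives identical at 61.6% of 575 aligned residues, are both linked to mammary epithelium and breast cancer, and the first was called in both comparisons. *Zfp703*, an oncogene of luminal tumours, stood at 62.0 ± 5.67 (SD, n = 3) units in control, 74.7 ± 12.3 (n = 4) with DOX, 50.7 ± 3.08 (n = 3) with IL-17A and 91.4 ± 3.42 (n = 3) with DOX+IL-17A. Its change in the second comparison passed the adjusted p (0.84 ± 0.20 on the log2 scale, adjusted p = 0.012) but not the fold change. Of 4 tested genes tied to p53 and DNA damage (*Zfp346*, *Zfp420*, *Zfp668* and *Zfp830*), none was called in either comparison. In the second, *Zfp346* had a log2 fold change of 1.16 ± 0.39 (adjusted p = 0.063) and *Zfp420* one of 1.40 ± 0.50 (adjusted p = 0.074). The groups did not overlap in either gene, and each was called under 4 of 22 alternatives. *Zfp346* stood at 7.74 ± 1.91, 10.9 ± 4.26, 5.70 ± 2.28 and 13.4 ± 2.04 units in control, DOX, IL-17A and DOX+IL-17A. *Zfp420*, which encodes a repressor of p53 targets, stood at 1.83 ± 1.12, 4.36 ± 2.995, 2.08 ± 0.693 and 7.12 ± 1.72 units in the same order. *Zfp668* and *Zfp830* stood at 13.6 ± 10.7 and 34.0 ± 9.70 units in control and at 10.2 ± 2.78 and 38.0 ± 6.42 with DOX. *Zfp217*, an oncogene of breast tumours, stood at 32.5 ± 6.95 units in control and 29.4 ± 4.52 with DOX, and the epidermal gene *Zfp750* at 1.39 ± 1.31 and 0.603 ± 0.687. *Zfp365* and *Zfp42* were not analysed here. *Zfp36*, which encodes the mRNA decay factor tristetraprolin, had 2.83 ± 2.68 units in control and 4.48 ± 2.50 with DOX, a difference smaller than either SD.

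Of 4 tested members listed for the silencing of imprinted genes and retroelements, none passed both thresholds. Their summed level was 125 to 147 units in control and 159.5 to 206 with DOX, and 111 to 130.2 with IL-17A and 134 to 167 with DOX+IL-17A, without overlap in either comparison. Among all tested genes, taken singly, 33.7% and 32% likewise did not overlap in these comparisons. Most of the sum came from *Zfp445*, whose log2 fold changes were 0.26 and 0.07. *Zfp568*, which represses a placental transcript of *Igf2*, stood at 12.8 ± 5.69 units in control, 23.4 ± 2.51 with DOX, 10.5 ± 3.61 with IL-17A and 19.6 ± 6.61 with DOX+IL-17A. Its log2 fold changes were 0.89 ± 0.32 (adjusted p = 0.058) and 0.84 ± 0.34 (adjusted p = 0.12), with no overlap in either comparison and a call under 3 and 1 of 22 alternatives. *Zfp445*, which guards imprinted loci, stood at 93.2 ± 5.60 units in control and 112 ± 12.8 with DOX. *Zfp809*, which silences murine leukaemia proviruses, stood at 27.4 ± 3.52 and 43.9 ± 7.16 units and passed the adjusted p alone with DOX (log2 fold change 0.65 ± 0.22, adjusted p = 0.047). *Zfp932* stood at 1.89 ± 1.998 and 3.35 ± 1.69 units. None of 15 genes of the KRAB corepressor list passed both thresholds in either comparison, and the list had a median log2 fold change of -0.05 in the first and -0.02 in the second. *Trim28*, the corepressor that binds KRAB domains, stood at 173 ± 33.2 units in control, 189.6 ± 13.6 with DOX, 170.2 ± 36.8 with IL-17A and 219 ± 34.9 with DOX+IL-17A. *Hdac1*, a histone deacetylase, passed the adjusted p alone, with log2 fold changes of 0.82 ± 0.21 (adjusted p = 0.011) and 0.86 ± 0.22 (adjusted p = 0.019). Among the RNA processing members (*Zfp326*, *Zfp638*, *Zfp473*, *Zfp106* and *Zfp143*), 1 of 5 was called with DOX and none in the other comparison. Of the 4 members listed for mitosis and ribosome (*Zfp207*, *Zfp622*, *Zfp593* and *Zfp598*), likewise 1 was called with DOX and none in the other. Among stem cell members, 1 of 3 (*Zfp296*) was called in each comparison, with *Zfp281* at 25.0 ± 6.85 and 31.6 ± 3.97 units and *Zfp462* at 53.4 ± 27.1 and 40.3 ± 5.26 in control and DOX, and of *Zfp592* and *Zfp687*, subunits of the Z3 chromatin complex, none.

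KRAB members and other members differed in level and in the centre of their changes. The median level was 5.85 units over 156 tested KRAB members and 11.7 over 137 others. With DOX alone the median log2 fold change was 0.27 in KRAB members, with 104 of 156 positive (66.7%). It was 0.06 in the others, with 73 of 137 positive (53.3%), and 54.6% of all tested genes were positive. For all tested genes of the same mean value as each class the median was 0.12 and 0.09. KRAB members called higher numbered 12 and those called lower 3, and in the others 10 and 8 were called. These made 9.62% of KRAB members and 13.1% of the others, against 15.3% of all tested genes. With DOX+IL-17A against IL-17A the medians were 0.11 and 0.04, against 0.06 and 0.02 for genes of the same mean value. In that comparison 4 KRAB members were called higher and 4 lower, and 4 and 8 of the others. These made 5.13% and 8.76% of the 2 classes, against 9.84% of all tested genes. The 30 tested members that share 20% or more of their 3' stretches had medians of 0.45 and 0.30, and no test was made of these classes.

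**Figure D5:**
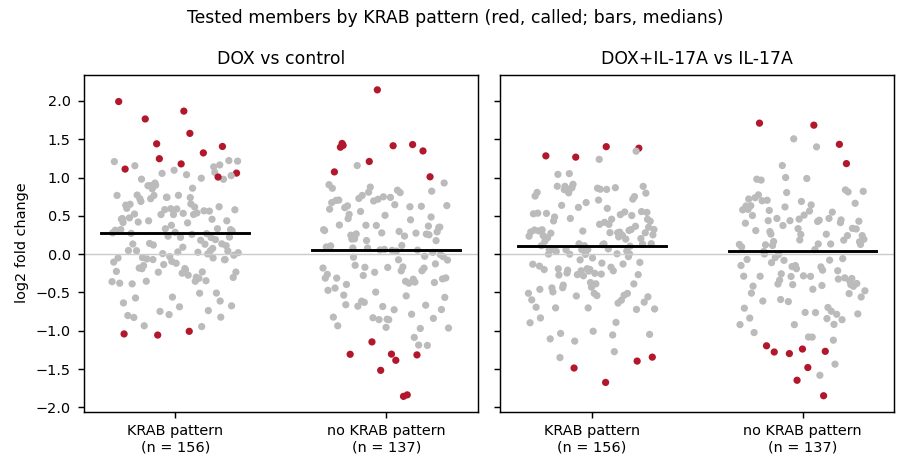
Log2 fold change of tested members with (n = 156) and without (n = 137) a KRAB pattern, in DOX vs control (left) and DOX+IL-17A vs IL-17A (right). Points are genes, red points were called, and bars are medians (0.27 and 0.06 on the left, 0.11 and 0.04 on the right).

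Members lay in runs along the genome. With neighbours at most 100000 bases apart, 12 runs of 5 or more members held 95 members. The longest was on chromosome 7 (chr7:29768552-30169750, 15 members, 14 tested), and it held *Zfp30* and *Zfp260*, which fell in both comparisons, beside *Zfp74*, which rose with DOX (log2 fold change 1.44 ± 0.39, adjusted p = 0.015, and 0.058 without control replicate 1). The run on chromosome 17 (chr17:21423227-22225616) held 14 members, all with a KRAB pattern, of which *Zfp948* rose and *Zfp820* fell with DOX. *Zfp820* held only 0 to 5 reads in the DOX libraries, and neither DESeq2 (adjusted p = 0.15) nor edgeR (0.17) called it. In a run of 5 on chromosome 4 (chr4:147553277-147848366) all 5 had a positive log2 fold change with DOX, with a median of 1.01, and *Zfp979* and *Zfp933* were called, the latter not without control replicate 5 (adjusted p = 0.16). With DOX+IL-17A against IL-17A, 4 of the 5 were positive, the median was 0.32 and only 1 was called. Of those 5 members 2 share 20% or more of their 3' stretches, so the copies are not fully separate measurements. In each of the 2 runs with most members, members of opposite direction were thus called with DOX, the chromosome 17 case resting on *Zfp820*.

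Promoters were compared by the letters they hold, with RefSeq sequences of GRCm38.p6 from 250 bases before to 50 after the start, which matched 255 of 306 members and 9830 other genes. *Zfp395* and *Zfp704* had no entry. The CCAAT motif (CCAAT on either strand) was present in 53.7% of members and 43.6% of all matched genes, and the GC box (GGGCGG on either strand) in 48.2% and 67.9%. The long motif bound by the product of the member *Zfp143* was present on either strand in 8 members (3.14%) and in 0.754% of all matched genes. The E box CACGTG was present in 8.63% of members and 11.6% of all. Of the 10 genes called in both comparisons that had an entry, 4 held CCAAT (*Zfp30*, *Zfp606*, *Zfp979* and *Zfp600*), 2 of which fell and 2 of which rose. The 250 bases before the start are shown for a member that fell and a member that rose, both with CCAAT and a GC box, in capitals on either strand. The matches overlap in *Zfp979*.

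Zfp606, chr7:12478055-12478304, + strand: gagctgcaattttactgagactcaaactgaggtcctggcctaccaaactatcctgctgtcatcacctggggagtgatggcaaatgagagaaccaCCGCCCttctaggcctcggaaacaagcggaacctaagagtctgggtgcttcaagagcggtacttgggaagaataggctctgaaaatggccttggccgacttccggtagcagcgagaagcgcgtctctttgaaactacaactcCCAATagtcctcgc

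Zfp979, chr4:147642509-147642758, - strand: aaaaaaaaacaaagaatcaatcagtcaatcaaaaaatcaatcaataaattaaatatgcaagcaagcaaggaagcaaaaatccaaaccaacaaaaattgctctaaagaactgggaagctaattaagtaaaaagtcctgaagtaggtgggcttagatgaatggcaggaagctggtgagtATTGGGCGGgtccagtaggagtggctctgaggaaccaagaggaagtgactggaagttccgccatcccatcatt

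Among members called with DOX that had an entry, CCAAT was held by 9 of 20 higher and 4 of 7 lower members. A match is a description of the letters and shows no binding.

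IL-17A left the members without a call. For IL-17A against control, limma called 0 of 294 members, against 0.00812% of all tested genes, and 2 members (0.68%) had an unadjusted p under 0.05, against 3.08% of all. The smallest p were those of *Zfp873*, *Zfp13*, *Zfp369*, *Zfp930* and *Zfp386*. *Zfp873* stood at 0.508, 0.487 and 3.06 units in control and at 2.82, 4.09 and 2.79 with IL-17A (log2 fold change 1.004 ± 0.43, unadjusted p = 0.032, adjusted p = 0.96), and its groups overlapped. *Zfp13* stood at 2.92 ± 2.89 units in control and 0.787 ± 0.398 with IL-17A, and *Zfp386* at 9.86 ± 4.19 and 15.9 ± 3.34. The groups did not overlap in 10 members (3.4%), against 6.04% of all. For DOX+IL-17A against DOX, 0 of 294 members were called, against 0.438% of all tested genes. An unadjusted p under 0.05 was found in 17 members, 5 higher and 12 lower, or 5.78% against 6.35% of all. The median log2 fold change was -0.11, against -0.03 for all tested genes and -0.06 at the same mean value. Of the 294 members 187 were negative and 107 (36.4%) positive, against 46.4% positive of all tested genes. *Zfp606* had the second smallest p here, with a mean of 6.86 ± 1.74 (SD, n = 4) units with DOX and 3.36 ± 1.597 (n = 3) with DOX+IL-17A (log2 fold change -0.90 ± 0.33, adjusted p = 0.5), and the groups did not overlap. *Zfp534*, *Zfp971*, *Zfp263* and *Zfp174* were the others of the 5 smallest. *Zfp534* had means of 1.82 units with DOX and 0.286 with DOX+IL-17A, *Zfp263* of 21.9 and 13.8, *Zfp174* of 0.293 and 1.46, and *Zfp971* of 2.46 and 6.29. The interaction term, which asks whether IL-17A acted differently with DOX than without, called 0 members and 0% of all tested genes, with 10 members (3.4%, against 4.51% of all) at an unadjusted p under 0.05, of which *Zfp873*, *Zfp710*, *Zfp94*, *Zfp174* and *Zfp760* had the smallest. DESeq2, edgeR and voom also called 0 members in these 3 comparisons.

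For DOX+IL-17A against control, which shares libraries with the comparisons above, 12 members were called higher and 18 lower, against 6.95% and 5.95% of all tested genes. These were 4.08% and 6.12% of the tested members, and the groups did not overlap in 91 (31%, against 30.1% of all). In a fit of only these groups the counts were 2 and 6. The higher members numbered 7 without DOX+IL-17A replicate 2, 5 without DOX+IL-17A replicate 3 and 4 without control replicate 5, and the lower ones 10 without DOX+IL-17A replicate 2 and 11 without DOX+IL-17A replicate 3.

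Other zinc finger gene families of the table were small, and their counts stand beside 9.15% of all tested genes called higher and 6.18% lower with DOX. Of 34 tested Zbtb genes, whose proteins join fingers to a BTB domain, 1 was called higher and 1 lower with DOX. Of 9 Zscan genes 1 was called lower, and of 8 Zkscan genes none. Of 21 tested genes named Zfp with a letter after the number, 2 were called higher.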

How the data were processed

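RNA of 4T1 cells was sequenced as 3' libraries with 75 base reads. Per the labels and the study's methods, the authors trimmed reads with Trimmomatic, aligned them to mm10 with STAR, counted them with featureCounts and normalized the counts by TMM. The deposited signal is thus a normalized read count per gene and library, without raw counts. Of 13223 entries, 1 was a repeat. In every library 100% of values were whole multiples of 1 step (tolerance 0.001 steps), which gave back the reads.

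limma with trend was fitted to log2(value + 1) over all 13 libraries with condition as the only factor (9 residual degrees of freedom), on 12319 genes kept by edgeR's filterByExpr. Fold changes are on that log2(value + 1) scale, which understates the change of low genes. p-values were adjusted by Benjamini-Hochberg. A call needed an adjusted p under 0.05 and more than a 2-fold change, and for the interaction the first of these. Single values were compared by exact permutation tests, 2-sided. The labels name replicates without saying whether they were separate cultures, so p-values measure the spread between these libraries. In a simulation of DOX against control with 200 of 12319 genes changed 4-fold, limma recovered 89% with 17 false calls. Every simulated gene had the same relative spread between libraries beyond counting error, and no simulated library stood apart, so the share holds for that setting only. That share was not split by mean value. Recovery at the low levels of the members, or of changes smaller than 4-fold, was not tested.

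Members, lists and tests were chosen with earlier results of these data known. The text names the members called in the same direction in both comparisons of DOX with all their values, the 5 smallest p where none was called, the 8 of highest mean and the listed roles. Replicate numbers were checked for pairing by the correlation of deviations from the group means. In DOX+IL-17A against IL-17A the 3 same-numbered pairs had an r of 0.168, 0.203 and 0.355. The pairs of that comparison that differ in number ran from -0.279 to 0.119, so every same-numbered pair lay above every other pair. The labels do not say what a number marks, so whether the libraries are paired is not known. The main fit treats them as unpaired, and the replicate block is an alternative. *Zfp367*, *Zfp961*, *Zfp850*, *Zfp707*, *Zfp775*, *Zfp609*, *Zfp608*, *Zfp74*, *Zfp820*, *Zfp933* and the members called only with DOX+IL-17A were chosen after their values were seen. Fingers, KRAB patterns and shared 3' ends came from GENCODE M21 transcripts (GRCm38). Alternatives were voom, DESeq2 and edgeR's quasi-likelihood test on recovered reads, scaling by library size only, a pseudocount of 0.1, dropping the filter or asking for 10 reads on average, fitting the compared groups by themselves, a replicate block, calls without the fold change, and omission of each library. DESeq2 1.42.0, edgeR 4.0.16 and limma 3.58.1 in R 4.3.3, and python 3.11.15, numpy 2.4.6, pandas 2.3.3, scipy 1.17.1 and Biopython 1.88 were used.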

Additional observations from a re-analysis of the deposited data

Results flagged for a closer look

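Of 67 named genes, 3 had a DOX library far from the other 3 (by Dixon's ratio, at 0.857, 0.83 and 0.842), and chance alone flags about 1 in 20 groups. *Zfp971* stood at 6.17 units in DOX replicate 4 and at 0.766 to 1.54 in the others. *Zfp369* stood at 8.95 units in DOX replicate 3 and at 0.966 to 2.32 in the others. *Zfp930* stood at 11.03 units in DOX replicate 1 and at 22.4 to 24.5 in the others. In *Zfp703* the 3 IL-17A libraries lay under every control, whereas the 3 DOX+IL-17A libraries lay over every DOX library. The log2 effect of the cytokine was 0.30 in the presence of DOX and -0.28 in its absence, a difference of 0.59, and limma's interaction term gave an unadjusted p of 0.045 and an adjusted p of 0.9.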

How the results depend on the processing

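Direction held in all alternatives run for the fold changes of members called in either comparison of DOX. The adjusted p alone raised the members called higher in DOX+IL-17A against IL-17A from 8 to 13, as did DESeq2 (13). Scaling by library size only gave 34 higher and 6 lower with DOX, 20 and 7 with DOX+IL-17A against IL-17A (median log2 fold change 0.26 in place of 0.07) and 23 higher with DOX+IL-17A against control. A fit of only the groups compared gave 2 higher and 6 lower in the last comparison. Leaving out each library in turn gave 9 to 23 higher and 5 to 12 lower members with DOX, 3 to 12 and 7 to 17 with DOX+IL-17A against IL-17A, 4 to 17 and 10 to 19 with DOX+IL-17A against control, and 0 in every fit of the other comparisons. The cause of these moves was not tested.

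With the replicate number as a block (5 residual degrees of freedom), 12 members were called higher and 7 lower with DOX, 9 and 15 with DOX+IL-17A against IL-17A, and 7 and 9 with DOX+IL-17A against control. In DOX+IL-17A against IL-17A the block changed none of the 20 calls made without it. Over all groups, deviations from the group mean correlated with a mean r of 0.151 between same-numbered libraries (13 pairs, -0.175 to 0.491). Between the others the mean r was -0.0368 (50 pairs, -0.564 to 0.468). Whether the numbers pair the libraries is not known from these values. Of the named members not called, 8 of 37 changed sign in at least 1 alternative with DOX and 7 of 40 with DOX+IL-17A against IL-17A, and 2 and 4 of them were called in at least 1. Members with fewer than 3 reads numbered 45 in control replicate 1 and 5 to 33 in the other libraries. DOX replicate 3 and IL-17A replicate 3 had 15 and 13 such members at 6477647 and 6598088 reads, against 6583757 reads in control replicate 1. DOX+IL-17A replicate 2, the library with fewest reads (4445592), had 33. The part of depth in these counts was not tested.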
